A study of Homo sapiens with 3 samples.

Results

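The 10 genes described here are markers of intestinal stem cells: LGR5, ASCL2, PROM1, CD44, ALDH1A1, SOX9, EPHB2, OLFM4, SMOC2 and LRIG1. They were chosen by name, each as the row of the expression table whose Ensembl identifier carries that symbol, and they make up 10 of the 60504 genes in the table. The study measured messenger RNA by RNA-Seq in DLD1, an established human colorectal cancer cell line with a truncated APC gene, to ask what the loss of BEX2 does to expression. There were 3 libraries of 1 each: DLD1 control cells, labelled wild type (titled DLD1), BEX2-/- DLD1 clone 1 (DLD1 KO1) and BEX2-/- DLD1 clone 2 (DLD1 KO2), the clones made by CRISPR/Cas9. No treatment was given to any of them in the labels, each knockout line is 1 clone, and the labels do not say whether the control cells were cloned. With 1 library of each line, a difference between a clone and the control has no replicate check, and the effects of the BEX2 deletion and of growing a clone cannot be told apart in either clone alone. The clones are the only pair of libraries with the same genotype, so their difference is the one measure of spread here.

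The FPKM values (fragments scaled to transcript length and to library size) imply library sizes of 47458835, 35594001 and 47722397 reads for the control, clone 1 and clone 2. BEX2, the targeted gene, was listed at 0 in all 3 libraries, the control included, so its level does not check the labels. All 7 markers of intestinal epithelium (EPCAM, CDH1, KRT8, KRT18, KRT19, VIL1 and CDX2) were detected, with summed levels of 1600, 1656 and 1855 FPKM. Markers of other cells were low: the summed levels were 0.129 to 0.634 FPKM for 6 fibroblast genes, 0.819 to 1.15 FPKM for 6 immune genes, 0.0649 to 0.0784 FPKM for 4 endothelial genes and 0.110 to 0.141 FPKM for 4 neuronal genes. PDGFRB, CD14, VWF and RBFOX3 had the highest mean of these 4 lists.

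Stem cells at the base of the intestinal crypt renew the epithelium, and they are kept by Wnt signals that stabilise beta-catenin, the partner of the TCF/LEF transcription factors. R-spondins strengthen the signal through LGR receptors. Many genes that mark these cells are Wnt targets, and in colorectal cancer they are used to describe cells with stem cell properties, although loss of APC makes the pathway active without a ligand.

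The markers covered a wide range of levels. In DLD1 control cells ASCL2 (81.3 FPKM) and SOX9 (65.4 FPKM) were far above the rest, at ranks 345 and 472 among 19664 protein-coding genes. CD44, LGR5 and EPHB2 lay between 6.13 and 8.44 FPKM. LRIG1, PROM1, ALDH1A1 and SMOC2 were at 0.0105 to 0.225 FPKM, and OLFM4 had no read. The sum over the 10 markers was 169 FPKM in the control, 145 FPKM in clone 1 and 128 FPKM in clone 2, of which SOX9 and ASCL2 held 86.7%, 76.4% and 83.0%. In clone 2 SOX9 stood above ASCL2, and in clone 1 LGR5 stood above CD44 and ALDH1A1 above LRIG1. Over the 2 clones, ASCL2 (48.6 ± 11.3 FPKM, SD, n = 2) and SOX9 (59.6 ± 8.21 FPKM, SD, n = 2) overlapped in their values. The value of CD44 in each clone (11.9 ± 0.0421 FPKM, SD, n = 2) lay between the LGR5 values of the clones (10.9 ± 6.51 FPKM, SD, n = 2).

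**Figure D1:**
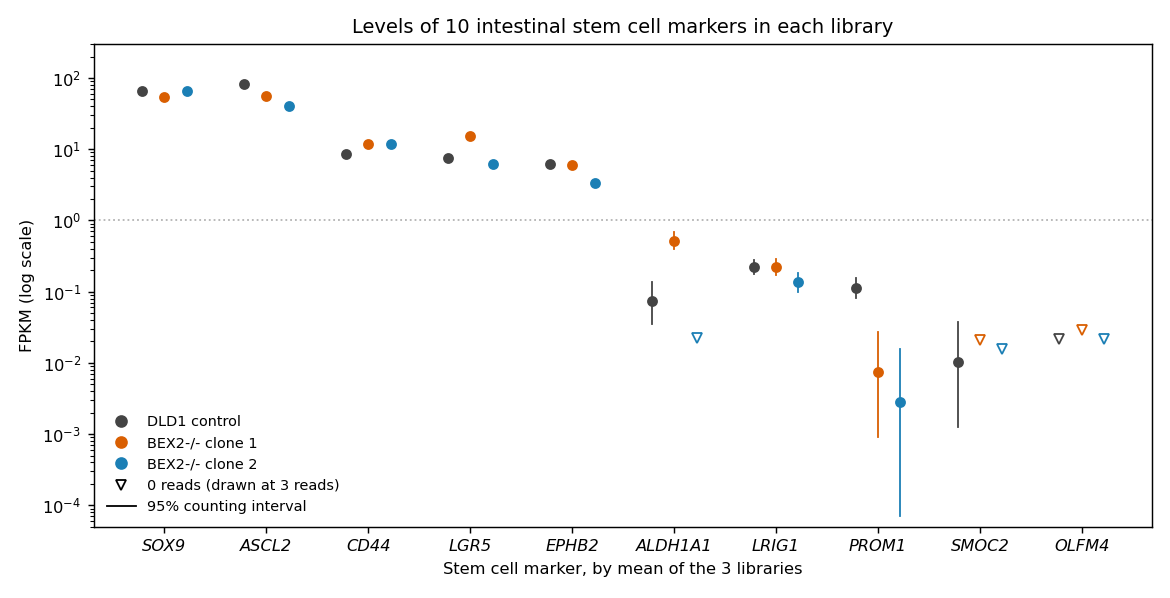
Level of each of the 10 markers (FPKM, log scale, ordered by mean) in the control (grey), clone 1 (orange) and clone 2 (blue). Bars are 95% intervals of counting error for the 9 markers whose reads were recovered, open triangles mark libraries with 0 reads, drawn at the level of 3 reads, and the dotted line is 1 FPKM. SOX9 and ASCL2 lie far above the other markers, and PROM1 has 40, 2 and 1 reads.

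For 7 of the 10 markers the reference promoter table held 14 windows of 300 bases (RefSeq, GRCh38.p14, 250 bases before to 50 after a start site), and LGR5, ASCL2 and SOX9 had none in it. Both strands were searched for 4 heptamers that TCF/LEF factors bind, of which CTTTGAA stands in 4.43% of all 35116 windows of the table, CTTTGAT in 2.62%, CTTTGTA in 2.77% and CTTTGTT in 5.20% (13.8% hold any of them). The E-box CAGCTG, the kind of motif that basic helix-loop-helix factors such as ASCL2 bind, was in 17.9% of all windows and in 0 of the 14. Counts out of 14 are not of separate sequences, since the windows of EPHB2 nearly coincide and some of those of LRIG1 overlap. A heptamer was in 3 of the 14 windows, those of PROM1, ALDH1A1 and OLFM4. These 3 are shown for the position of the heptamer (in capitals) in markers that were under 1 FPKM in all 3 libraries, and the CD44 window is shown as that of the marker whose level was higher in both clones. The PROM1 window is the most downstream of its 4 start sites, chr4:16076069-16076368 (minus strand), ALDH1A1 is chr9:72953004-72953303 (minus strand), OLFM4 is chr13:53028563-53028862 (plus strand) and CD44 is chr11:35138921-35139220 (plus strand). A heptamer on the opposite strand, as in OLFM4, reads as its reverse complement here.
PROM1: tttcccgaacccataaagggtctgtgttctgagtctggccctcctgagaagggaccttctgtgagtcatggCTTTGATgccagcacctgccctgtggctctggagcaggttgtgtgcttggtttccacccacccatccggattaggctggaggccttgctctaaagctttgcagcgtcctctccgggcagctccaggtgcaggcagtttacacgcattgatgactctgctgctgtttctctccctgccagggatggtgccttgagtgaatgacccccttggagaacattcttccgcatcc
ALDH1A1: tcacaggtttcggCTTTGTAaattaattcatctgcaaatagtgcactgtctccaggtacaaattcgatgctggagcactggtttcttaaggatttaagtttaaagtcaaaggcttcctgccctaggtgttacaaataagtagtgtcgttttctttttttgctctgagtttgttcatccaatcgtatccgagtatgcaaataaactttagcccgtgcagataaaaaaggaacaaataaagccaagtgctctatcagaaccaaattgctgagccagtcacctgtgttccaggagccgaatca
OLFM4: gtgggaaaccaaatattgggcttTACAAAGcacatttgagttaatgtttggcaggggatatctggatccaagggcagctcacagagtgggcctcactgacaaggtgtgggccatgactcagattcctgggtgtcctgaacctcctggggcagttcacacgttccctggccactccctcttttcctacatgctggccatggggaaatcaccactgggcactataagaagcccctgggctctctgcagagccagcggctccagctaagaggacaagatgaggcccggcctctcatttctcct
CD44: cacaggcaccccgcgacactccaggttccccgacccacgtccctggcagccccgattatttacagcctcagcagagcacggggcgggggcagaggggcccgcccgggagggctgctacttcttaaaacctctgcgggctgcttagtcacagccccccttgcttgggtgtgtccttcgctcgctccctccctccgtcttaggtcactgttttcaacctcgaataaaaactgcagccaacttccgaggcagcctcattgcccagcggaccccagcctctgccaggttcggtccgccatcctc
Counted from the start site, the heptamer lay at -179 in PROM1, at -237 in ALDH1A1 and at -227 in OLFM4. CG dinucleotides numbered 6, 7 and 3 in these 3 windows and 18 in that of CD44, against a median of 14 over all windows. In EPHB2 the windows held 49 and 48 CG. A matched heptamer is a description of letters, and nothing was measured at these promoters.

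LGR5, an R-spondin receptor and the marker of crypt-base stem cells (ENSG00000139292, chr12:71439770-71586310, plus strand of GRCh38), was at 7.51 FPKM in the control, 15.5 FPKM in clone 1 and 6.25 FPKM in clone 2. Clone 1 was therefore high and clone 2 was near the control. In bulk RNA, more cells that express a gene and more RNA per cell cannot be told apart. In FPKM, clone 1 was 2.06-fold the control (95% counting interval 1.94 to 2.18), clone 2 was at 0.833 of the control (0.778 to 0.891) and clone 2 was 2.47-fold lower than clone 1 (2.32 to 2.63). These intervals, made from 1871, 2890 and 1567 reads, cover counting error only. On the log2(FPKM + 1) scale, which understates the ratio of low genes, clone 1 stood 0.95 above the control and clone 2 was at -0.23. The ratio in clone 1 was larger in size than those of 97.7% of the genes tested. Of the protein-coding genes compared over these 3 libraries, APPL2 (6.74, 13.9 and 5.67 FPKM), TIMP4 (2.49, 5.82 and 2.01 FPKM) and PLXNA2 (0.924, 2.69 and 0.587 FPKM) had ratios nearest to those of LGR5, at distances of 0.0168, 0.0211 and 0.0487 on the log2(FPKM + 1) scale. That scale draws in the ratios of low genes such as PLXNA2, so its nearness does not carry over to FPKM. PLXNA2 also reached the mean of 1 FPKM needed for testing only through clone 1, where it was high. TSPAN8, a tetraspanin gene on the opposite strand whose span crosses LGR5 over 2129 bases but shares 0 exon bases, was at 25.1, 55.3 and 24.1 FPKM. Use of strand in counting is not stated in the sources used here, and the antisense gene AC078860.1, at 0.360 to 0.480 FPKM, shares 208 exon bases with LGR5, so reads over them cannot be assigned to 1 gene.

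EPHB2, the receptor tyrosine kinase that sorts cells along the crypt and is highest at its base (ENSG00000133216, chr1:22710839-22921500, plus strand), was at 6.13, 6.06 and 3.39 FPKM in the control, clone 1 and clone 2. Only clone 2 was apart from the control. Its level was 0.553 of the control (95% counting interval 0.524 to 0.584), while that of clone 1 was 0.989 (0.940 to 1.04). EPHB3, a related Eph receptor, was at 6.51, 7.13 and 2.82 FPKM, with clone 2 again the lowest. Other genes of this family went the other way: EPHA2 was highest in clone 2. The median log2 ratio of clone 2 to the control was 0.06 over the 8 other ephrin and Eph receptor genes tested. LRIG1, a transmembrane protein that restrains EGF receptor signals (ENSG00000144749, chr3:66378797-66501263, minus strand), was at 0.225, 0.224 and 0.137 FPKM from 75, 56 and 46 reads. Clone 2 was at 0.610 of the control by reads (0.413 to 0.892) and clone 1 at 0.996 (0.691 to 1.43). SLC25A26 on the other strand shares 12.9% of the exon bases of LRIG1 and was at 2.71 to 2.95 FPKM, which makes the level of LRIG1 uncertain.

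CD44, the hyaluronan receptor and a Wnt target (ENSG00000026508, chr11:35138870-35232402, plus strand), was at 8.44, 11.9 and 11.9 FPKM. Both clones were above the control, by 1.41-fold and 1.40-fold in FPKM, and clone 2 was at 0.995 of clone 1. With 39 annotated transcripts its reads could not be recovered, so it has no counting interval. The antisense gene CD44-AS1 shares 84 exon bases with it.

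PROM1, or CD133, a pentaspan membrane protein used to sort tumour cells with stem cell properties (ENSG00000007062, chr4:15963076-16084378, minus strand), was at 0.113, 0.00756 and 0.00282 FPKM in the control, clone 1 and clone 2. These values are 40, 2 and 1 reads. Both clones were below the control, by 15.0-fold (95% counting interval 3.89 to 128) and 40.2-fold (6.82 to 1628), with so few reads that the size is poorly fixed. With the clones set to the floor of 3 reads, they were 10-fold and 13.4-fold below the control. FGFBP2 shares 166 exon bases with PROM1 on the same strand, and was at 0.0169, 0.135 and 0.134 FPKM.

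ASCL2, a basic helix-loop-helix factor and Wnt target that sets the state of LGR5 cells (ENSG00000183734, chr11:2268495-2270952, minus strand), was at 81.3, 56.6 and 40.6 FPKM. Both clones were below the control, and clone 2 was below clone 1. In FPKM, clone 1 was at 0.696 of the control (95% counting interval 0.669 to 0.725), clone 2 at 0.500 (0.480 to 0.520) and clone 2 at 0.717 of clone 1 (0.685 to 0.751). The log2 ratio of clone 2, -0.98, was larger in size than that of 97.8% of genes. SOX9, an HMG-box factor of crypt-base and Paneth cells (ENSG00000125398, chr17:72121020-72126420, plus strand), was at 65.4, 53.8 and 65.4 FPKM. Clone 2 equalled the control within counting error, at 1.00 (0.975 to 1.03), and clone 1 was at 0.822 (0.799 to 0.846).

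ALDH1A1, a retinaldehyde dehydrogenase that is used as an enzyme mark of stem cells (ENSG00000165092, chr9:72900662-73080442, minus strand), was at 0.0740 and 0.523 FPKM in the control and clone 1, and had 0 reads in clone 2. Clone 1 was high, 7.07-fold the control (95% counting interval 3.56 to 15.6) from 53 against 10 reads. With clone 2 set to a floor of 3 reads, it was at least 3.35-fold lower than the control and at least 23.7-fold lower than clone 1 by their point values. The 95% counting intervals, which also hold the error of the other library, began at 2.25-fold and 18.6-fold. SMOC2, a secreted matricellular protein (ENSG00000112562, chr6:168441151-168673445, plus strand), had 2, 0 and 0 reads, which allows no ratio. OLFM4, a secreted olfactomedin glycoprotein of human crypt-base cells (ENSG00000102837, chr13:53028759-53052057, plus strand), had 0 reads in each library. The level of 3 reads, the floor used here, would be 0.0218, 0.0291 and 0.0217 FPKM, and the exact 95% limits of 0 reads are 0.0268, 0.0358 and 0.0267 FPKM.

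**Figure D2:**
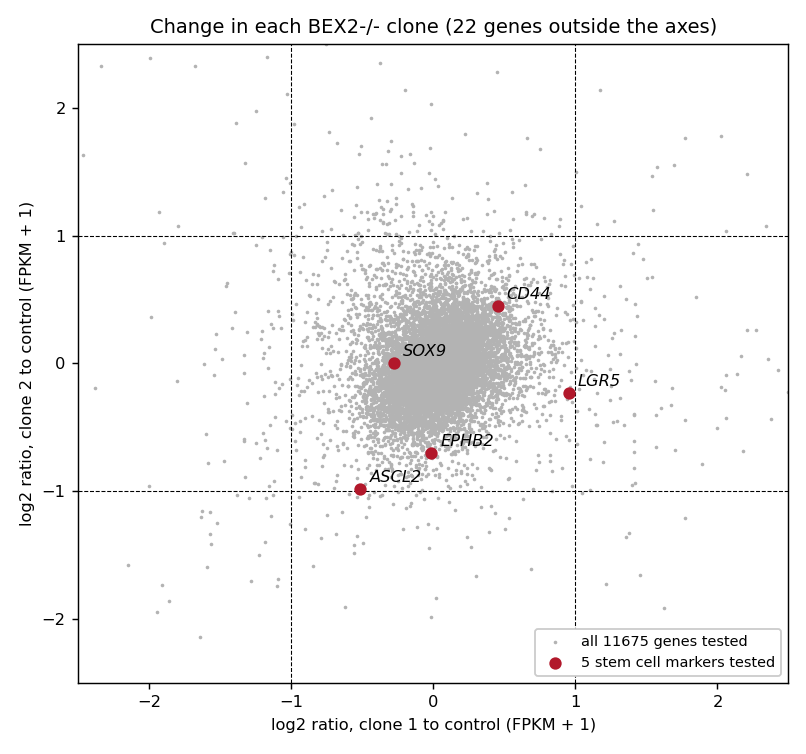
log2 ratio of clone 1 to the control (horizontal) against that of clone 2 to the control (vertical), each of FPKM + 1, for 11653 of the 11675 genes tested (grey, 22 lie outside the axes) and the 5 markers tested (red). Dashed lines are 2-fold. LGR5 is high in clone 1 alone, ASCL2 and EPHB2 lie low in clone 2, and CD44 is at 0.45 in both.

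Genes with a mean of at least 1 FPKM were tested, 11675 in all, and 5 of the 10 markers passed: LGR5, ASCL2, CD44, SOX9 and EPHB2. PROM1, ALDH1A1, LRIG1, SMOC2 and OLFM4 did not. Counted as at least 2-fold different on the log2(FPKM + 1) scale, 0 markers differed in both clones in the same direction (0.325% of all genes), 0 in clone 1 against the control (2.02%), 0 in clone 2 against the control (2.06%) and 1, LGR5, in clone 2 against clone 1 (4.19%). LGR5 in clone 1 and ASCL2 in clone 2 stood just short of this limit, at 0.95 and -0.98. Counted on FPKM with values under 3 reads set to 3 reads, which tests low genes too, the markers past 2-fold were PROM1 in both clones (4.47% of 23385 genes), LGR5, PROM1 and ALDH1A1 in clone 1 (14.7%), ASCL2, PROM1 and ALDH1A1 in clone 2 (16.9%), and LGR5 and ALDH1A1 in clone 2 against clone 1 (19.2%). This way of counting was chosen after seeing the data. PROM1 entered it only through the control, with 40 reads against 2 and 1 in the clones, so it could only be called lower in them. Since the clones share the control, counts over both clones are not independent, and the list was chosen with earlier results of these data known.

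The test with both clones as 1 group against the control (limma, with 1 residual degree of freedom) called 0 of 11675 genes (0%) at an adjusted p under 0.05, and 148 genes (1.27%) at an unadjusted p under 0.05. None of the 5 markers was among the 148. The log2 difference between clones and control was 0.36 ± 0.58 (SE) for LGR5, -0.75 ± 0.287 for ASCL2, 0.45 ± 0.187 for CD44, -0.14 ± 0.227 for SOX9 and -0.36 ± 0.369 for EPHB2. The adjusted p of limma was 1.00 for each of the 5. For LGR5, EPHB2 and SOX9 the clones differed from each other by more than their mean differed from the control.

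Other genes of the crypt and of the pathways of the markers were taken as lists. The median log2 ratio of clone 1 and of clone 2 to the control was 0.04 and -0.01 over all genes tested. Of 12 other crypt-base genes, 9 passed the filter, with medians of -0.38 and 0.14. SOX4, a Wnt-linked SOX factor (10.9, 7.26 and 23.3 FPKM), PHLDA1 (16.9, 10.9 and 25.6 FPKM) and TNFRSF19, the receptor also called TROY (8.50, 4.01 and 9.46 FPKM), were each at least 2-fold higher in clone 2 than in clone 1. Of all genes tested, 4.19% were at least 2-fold different between the clones. SOX4 was also at least 2-fold higher in clone 2 than in the control, where 2.06% of all genes tested were at least 2-fold different. ETS2 had the highest mean of the list, at 54.7, 42.9 and 42.6 FPKM. Of 8 genes of reserve or injury-associated crypt cells, 5 passed, with medians of -0.56 and 0.14. Without 1 gene that passed only through the control, the medians were -0.60 and 0.18. ANXA1 was at 40.9, 27.5 and 59.7 FPKM.

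Of 12 R-spondin and Wnt receptor genes, 8 passed, with medians of 0.36 and 0.10. None was 2-fold different in any comparison, against 2.02% to 4.19% of all genes tested in the single comparisons. RNF43, the ligase that removes Wnt receptors, was the highest at 17.4, 20.1 and 16.3 FPKM, and of the R-spondins, the ligands of LGR5, RSPO1, RSPO2 and RSPO3 were at 0 in all 3 libraries and RSPO4 was at 0.0104 FPKM in clone 1 and 0 in the others. Of 10 Wnt target and TCF genes, 8 passed, with medians of -0.36 and 0.24. LEF1, a TCF/LEF factor, was at 12.8, 6.54 and 18.8 FPKM. It was the 1 gene of the list at least 2-fold different between the clones (4.19% of all genes tested were). CCND1, cyclin D1, was at 72.9, 50.6 and 89.5 FPKM. Of 10 other surface markers used for colorectal cancer stem cells, 9 passed, with medians of 0.42 and -0.003 (0.37 and -0.09 without ABCG2). The peptidase DPP4 was at 1.15, 6.34 and 0.581 FPKM and the transporter ABCG2 at 0.834, 7.22 and 0.912 FPKM, so both were high in clone 1 alone. ABCG2 passed the filter only through clone 1. Without clone 1 the mean of DPP4 would also be under 1 FPKM, so its pass rested on clone 1 too. The medians without ABCG2 still include DPP4. EPCAM was at 265, 282 and 220 FPKM.

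Differentiated intestinal cell genes, which the stem cell markers are set against in the crypt, were read beside them. Of 20 genes 5 passed the filter, with medians of 1.40 in clone 1 and -0.30 in clone 2. FABP1 passed only through clone 1, where it was high, and the other 4 genes had medians of 1.11 and -0.63. KRT20, the keratin of surface cells, was at 18.9, 117 and 0.931 FPKM. FABP1, a fatty acid-binding protein of enterocytes, was at 0.171, 16.7 and 0 FPKM, and TFF3 of goblet cells at 13.0, 35.7 and 6.21 FPKM. Clone 1, the library highest in LGR5, was thus also the highest in these genes. CA2, carbonic anhydrase, was at 4.26, 8.35 and 3.28 FPKM, and AGR2, of secretory cells, had the highest mean at 117, 191 and 137 FPKM. VIL1, the microvillus protein of the epithelial markers, was at 3.61, 13.2 and 0.221 FPKM, while KRT8 was at 538, 510 and 611 FPKM. Their part in the values of the stem cell markers was not tested.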

How the data were processed

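RNA-Seq of 3 DLD1 libraries was analysed from the deposited table of FPKM for 60504 Ensembl genes. The authors' processing notes name Trim Galore 0.3.7, STAR 2.5, Cufflinks 2.2.1, DESeq 1.22.1 and build hg19. The annotation release is not given in the sources used here. Some identifiers belong to later annotations than hg19, and coordinates here are those of GRCh38 (GENCODE release 29), which matched 56996 identifiers.

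Reads were recovered by multiplying FPKM by the merged exon length, and 98.7% to 98.8% of low values of genes with 1 transcript came out whole within 0.02. For genes with more than 1 transcript, as most of the recovered markers are, the share was 88.1% to 89.0%. Reads of a marker were used only where its values were whole in all 3 libraries. Intervals are exact (Poisson for a level, Clopper-Pearson for a ratio, both 95%) and cover counting error only. Ratios were on log2(FPKM + 1) over genes with a mean of at least 1 FPKM, where the control was averaged with the mean of the clones. limma 3.58.1 in R 4.3.3 with Benjamini-Hochberg adjustment compared both clones with the control. The labels do not say that the clones came from separate cultures, so p-values rest on the spread between these 2 libraries only. For each gene that spread was moderated across all genes tested, and the single control was assumed to vary like the clones.

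The markers and the 16 gene lists were chosen with earlier results of these data known. Named genes were the markers, BEX2, up to 5 genes of each list with the largest ratio among those at least 2-fold different in any comparison, the gene of highest mean of each list, and the 3 protein-coding genes nearest to a marker that was 2-fold different. TSPAN8, KCNQ1 and the overlapping and neighbouring genes were named after their values were seen. Alternatives tried were other pseudocounts, scalings, filters and folds, and leaving out each clone.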

Additional observations from a re-analysis of the deposited data

How the results depend on the processing

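The count of markers at least 2-fold different changed with the processing where a marker stood near the limit. In both clones it was 0, and 1 (PROM1) with a floor of 3 reads in place of the pseudocount and filter, an alternative chosen after seeing the data. PROM1 entered under that floor only through the control. In clone 1 the count was 0, and 1 (LGR5) with a pseudocount of 0.1 FPKM, with no pseudocount, with TPM scaling and at 1.5-fold, and 3 with the floor. In clone 2 it was 0, 1 (ASCL2) with no pseudocount, 2 (ASCL2 and EPHB2) at 1.5-fold and 3 with the floor. Between the clones it was 1, and 2 at 1.5-fold (with EPHB2) or with the floor (with ALDH1A1). With 1 clone left out, the count over both clones becomes that of the other clone alone, given above as 0 for each, so it adds no check. limma gave 0 markers under each alternative run, with marker adjusted p from 0.336 to 1; the lowest, for CD44 with no filter, came with a warning that most variances were 0 and is unreliable. Without 1 clone limma had no residual degree of freedom, so no test was made. A pseudocount cannot turn a ratio. Under the other scalings, which shift all genes of a library alike, 5 of 30 single-marker ratios turned, each close to 0: CD44 between the clones (0.05 and 0.003 in place of -0.01), SOX9 in clone 2 and EPHB2 in clone 1. No paired analysis was possible because the control has 1 library. Depth limits the markers under 1 FPKM, which rest on 0 to 75 reads.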

Other observations

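The lists of pathway partners not described above gave these values. Of 10 Notch genes 5 passed the filter, with medians of 0.11 in clone 1 and 0.38 in clone 2. None was 2-fold different in any comparison (2.02% to 4.19% of all genes tested were, by comparison). JAG2, a ligand, was at 15.6, 15.0 and 8.73 FPKM in the control, clone 1 and clone 2. Of 10 ephrin and Eph receptor genes 8 passed, with medians of -0.04 and 0.06, and EPHA2 was at 21.5, 15.5 and 37.5 FPKM. Of 10 aldehyde dehydrogenase genes 8 passed, with medians of 0.21 and -0.18. ALDH3A1 was at 31.7, 52.9 and 24.6 FPKM and ALDH3B1 at 3.21, 6.62 and 2.64 FPKM, so both were highest in clone 1, as ALDH1A1 was. ALDH18A1 was at 44.1, 44.6 and 38.6 FPKM. Of 12 hyaluronan and CD44-linked genes 7 passed, with medians of 0.21 and 0.05. HMMR, a hyaluronan-binding protein of the spindle, was at 15.3, 21.0 and 9.15 FPKM, and EZR, the membrane linker ezrin, at 164, 186 and 192 FPKM. Of 11 paralogues of the markers 3 passed, PROM2 only through clone 1. None was 2-fold different (2.02% to 4.19% of all genes tested were, by comparison), and LRIG2 was at 1.53, 1.93 and 1.97 FPKM.

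Genes near ASCL2 were looked at after the values were seen. Within 500 kb, 7 protein-coding genes passed the filter. Of these, 5 were lower than the control in clone 1, 5 in clone 2 and 3 in both clones. Their median log2 ratios were -0.17 in clone 1 and -0.35 in clone 2, against 0.04 and -0.01 over all genes tested. The share of all genes tested that were lower in each clone was not counted. SYT8 was at 3.86, 3.95 and 0.989 FPKM and TNNI2 at 8.61, 8.75 and 1.68 FPKM. The log2 ratio of clone 2 to the control was 1.18 for IGF2, an imprinted growth factor gene. IGF2 passed the filter only through clone 2, where it was high, so it cannot show whether neighbours shared 1 direction in clone 2. The counts and medians above include IGF2. KCNQ1, the other neighbour that was not lower in clone 2, was at 2.26, 1.90 and 2.27 FPKM, so clone 2 was close to the control. Neighbours of other markers were counted in the same way. All 5 near LGR5 were higher than the control in clone 1, and 4 were lower in clone 2. Near CD44, 4 of 5 were higher in clone 1 and 4 in clone 2, with 3 higher in both. Near EPHB2, 3 of 5 were lower in both clones. Whether neighbours changed together was not tested.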
